A study of Caenorhabditis elegans with 2 samples.

Results

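The 81 cytosolic ribosomal protein genes of Caenorhabditis elegans were examined for ALY-1-GFP peaks in early embryos. They are the protein-coding genes whose Ensembl WBcel235 symbols begin with rpl-, rps- or rla-, and they are 81 of 19973 protein-coding genes on the nuclear chromosomes. Of them, 47 encode proteins of the large subunit, 31 proteins of the small subunit and 3 proteins of the stalk.

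ALY-1 was mapped on chromatin by ChIP-seq in a single group of 2 biological replicates, with no second genotype or treatment. Both came from strain OP502, which carries the allele unc-119(tm4063) on chromosome III and the transgene wgIs502, so ALY-1 fused at its C terminus to GFP and FLAG is made from a transgene. Whole early embryos of hermaphrodites were collected 0 hours after egg bleaching, their chromatin was sonicated and an anti-GFP antibody was used for the precipitation. One control alignment served both replicates, an immunoprecipitation from worms without the tag was not analysed here, and all cell types of the embryo were pooled.

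Ribosomal proteins assemble with ribosomal RNA in the nucleolus into the subunits that read and translate messenger RNA, and their genes are among the most strongly transcribed by RNA polymerase II in growing cells. ALY-1 is a member of the Aly/REF family, adaptors that load onto nascent messenger RNA and hand it to the export receptor. Several worm ribosomal protein genes carry small nucleolar RNA (snoRNA) genes in their introns, and many worm messengers are trans-spliced, so that the annotated 5′ end of a gene can lie downstream of where transcription starts.

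The sequence under 3 of the strongest upstream summits outside genes is shown first, as 101 bases of build ce11 centred on the summit and read on the strand of the gene. Capitals mark any of the 6 eight-letter words described with the shared sequences. The rps-24 stretch holds none of them.
rpl-3, chrIII:3867543-3867643, + strand: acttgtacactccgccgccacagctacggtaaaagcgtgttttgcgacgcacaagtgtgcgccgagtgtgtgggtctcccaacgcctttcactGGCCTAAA
rps-24, chrIV:385498-385598, + strand: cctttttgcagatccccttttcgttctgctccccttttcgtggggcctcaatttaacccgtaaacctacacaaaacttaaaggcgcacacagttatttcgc
rpl-35, chrIII:7854690-7854790, + strand: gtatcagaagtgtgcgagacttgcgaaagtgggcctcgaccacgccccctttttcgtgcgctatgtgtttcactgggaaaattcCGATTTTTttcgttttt

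Nearly all ribosomal protein genes had an ALY-1-GFP summit, but few of the strongest peaks of the genome lay there. A gene was counted when a summit, the position of highest signal in a peak, lay between 1000 bp upstream of its 5′ end and 500 bp past its 3′ end. In the pooled candidate list of 30000 peaks, called on both replicates together, 79 of the 81 genes (97.5%, exact 95% interval 91.4 to 99.7%) had a summit, against 60.1% of all protein-coding genes. Among the 5000 strongest of these peaks the count was 47 genes (58%, interval 46.5 to 68.9%), against 18.4% of all protein-coding genes. In the thresholded set, the peaks that passed the authors' test of reproducibility, it was 3 genes (3.70%, interval 0.77 to 10.4%), against 4.03% of all protein-coding genes, so the share in the thresholded set was near the background. Intervals cover counting error only, and several genes share a peak.

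Ribosomal protein genes had the larger share although their windows were shorter. The median window was 2254 bp at ribosomal protein genes and 3527 bp at all protein-coding genes, and the median gene length was 754 bp, against 2027 bp. Per kilobase of window, the ribosomal protein genes had 0.893 candidate summits and the whole gene set 0.329. Among the 5000 strongest peaks the density was 0.290 summits per kilobase at ribosomal protein genes and 0.0549 at all protein-coding genes. In the thresholded set it was 0.0161 per kilobase at ribosomal protein genes, which are 3 summits, and 0.0096 at all protein-coding genes.

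The gap opened between the thresholded set and the peaks ranked next. Among the 2000 strongest pooled peaks, 20 ribosomal protein genes (24.7%) had a summit, against 8.34% of all protein-coding genes. Among the 10000 strongest it was 66 (81.5%), against 31.3%. The best peak of a ribosomal protein gene had a median rank of 4186 (quartiles 1987 to 7292, range 268 to 27914) over the 79 genes with a summit, and the median over all protein-coding genes with a summit was 9460. The −log10 q-values of these best peaks ran from 0.0653 to 2.73 with a median of 0.887, and the lowest in the thresholded set was 2.20. That value did not separate the set, since rpl-35 (2.33) and rps-29 (2.34) lay outside it and rps-26 (2.24) inside.

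**Figure D1:**
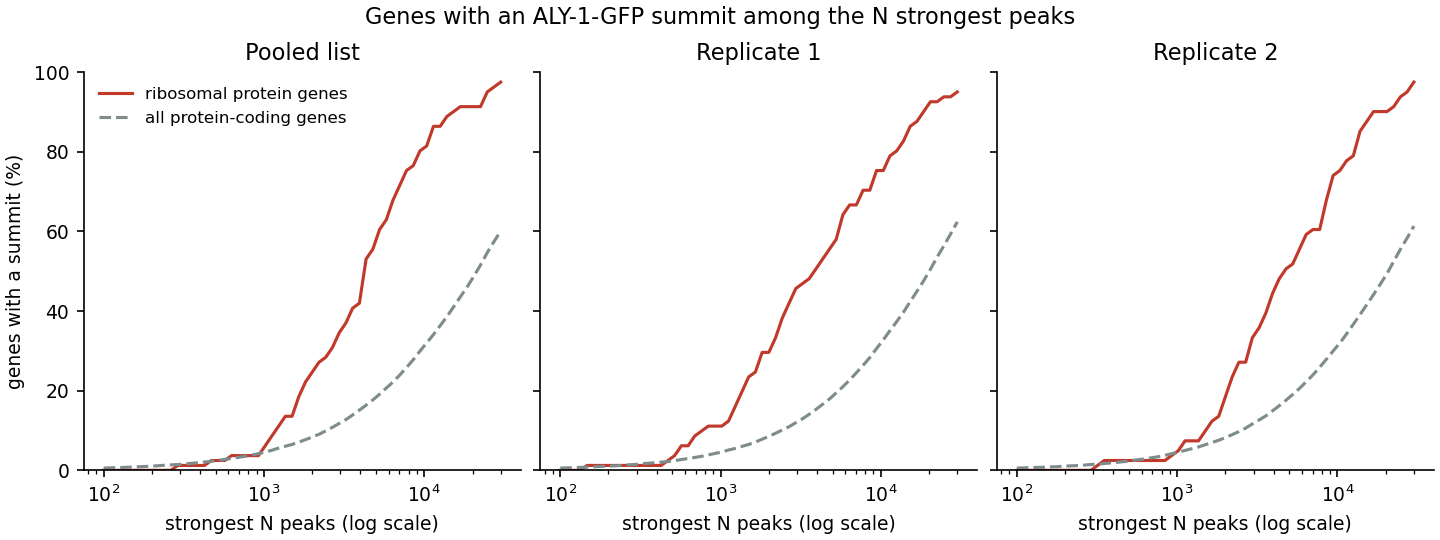
Share of genes with a summit in the gene window (vertical axis, percent) among the N strongest peaks (horizontal axis, log scale) of the pooled list and of each replicate's own list, for the 81 ribosomal protein genes (solid line) and all 19973 protein-coding genes (dashed line). The 2 lines run together at the left of each panel and then part, reaching 58% against 18.4% at 5000 pooled peaks.

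Among the large subunit genes, 46 of 47 had a candidate summit, the median best rank was 4793, and 24 were among the 5000 strongest. rpl-3 led them with a signal of 121 and pooled rank 268. Its product lies close to the peptidyl transferase centre and, in yeast, joins the particle early in assembly. The rpl-3 summit lay 261 bp upstream of its own 5′ end and was nearer to that end than to any other gene's, and its peak ranked 139 in replicate 1 and 898 in replicate 2. It was the only ribosomal protein gene in the top 1000 of both replicates' lists by its best pooled peak.

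The next large subunit gene was rpl-35, whose protein sits at the exit of the peptide tunnel. Its peak ranked 959 in the pooled list, 1355 in replicate 1 and 1554 in replicate 2, and was the first ribosomal protein peak outside the thresholded set, with a signal of 83.0 against a lowest thresholded signal of 85.5. The ribosomal protein peak nearest to the threshold from inside was that of rps-26, at rank 614 and with a signal of 95.4. Further large subunit genes of high rank were rpl-15 (pooled rank 1134, summit 324 bp upstream), rpl-24.2 (1194, 185 bp upstream), rpl-11.2 (1505, 446 bp upstream), rpl-22 (1507, 259 bp upstream) and rpl-27 (1582, past the 3′ end). The rpl-27 summit lay 43 bp from the 5′ end of egl-30, that of rpl-22 was nearer to ify-1 (178 bp), and that of rpl-24.2 lay inside C03D6.1. rpl-11.2 encodes one of the proteins that bind 5S ribosomal RNA. rpl-37 had no candidate summit in the pooled list or in either replicate's own list.

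Small subunit genes all had a candidate summit, with a median best rank of 3320 and 22 of 31 among the 5000 strongest. rps-24 ranked 462 in the pooled list with a signal of 104, its summit 339 bp upstream of its own 5′ end and in no other protein-coding gene's window. rps-26, whose product lines the messenger RNA exit channel, ranked 614 with a signal of 95.4. Its summit, 410 bp upstream of rps-26, lay 47 bp from the 5′ end of the neighbouring gene tmem-107, so the gene it belongs to cannot be told apart. These 2 peaks and that of rpl-3 were the thresholded summits of the ribosomal protein genes, and all 3 lay upstream.

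Other small subunit genes of high rank differed in where the summit lay. Upstream summits were found at rps-29 (pooled rank 975), rps-28 (1028), rps-18 (1280) and rps-0 (1322), but those of rps-29 and rps-0 were 45 bp from the 5′ end of snt-2 and 46 bp from that of rbg-3, and that of rps-18 lay inside sec-61.A. At rps-6, which encodes the ribosomal protein phosphorylated by S6 kinase, the best summit (rank 1032) was in the 3′ untranslated region. At rps-27 it lay past the gene's end (rank 1532).

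Stalk genes gave the thinnest record. The stalk is the flexible arm of the large subunit that recruits translation factors. rla-1 had its best summit in a coding exon at pooled rank 1917 and rla-2 in an intron at rank 5464. rla-0, which encodes the protein at the stalk's base, had no candidate summit in the pooled list. It had one in each replicate's own list, at rank 11389 in replicate 1 and 22240 in replicate 2.

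**Figure D2:**
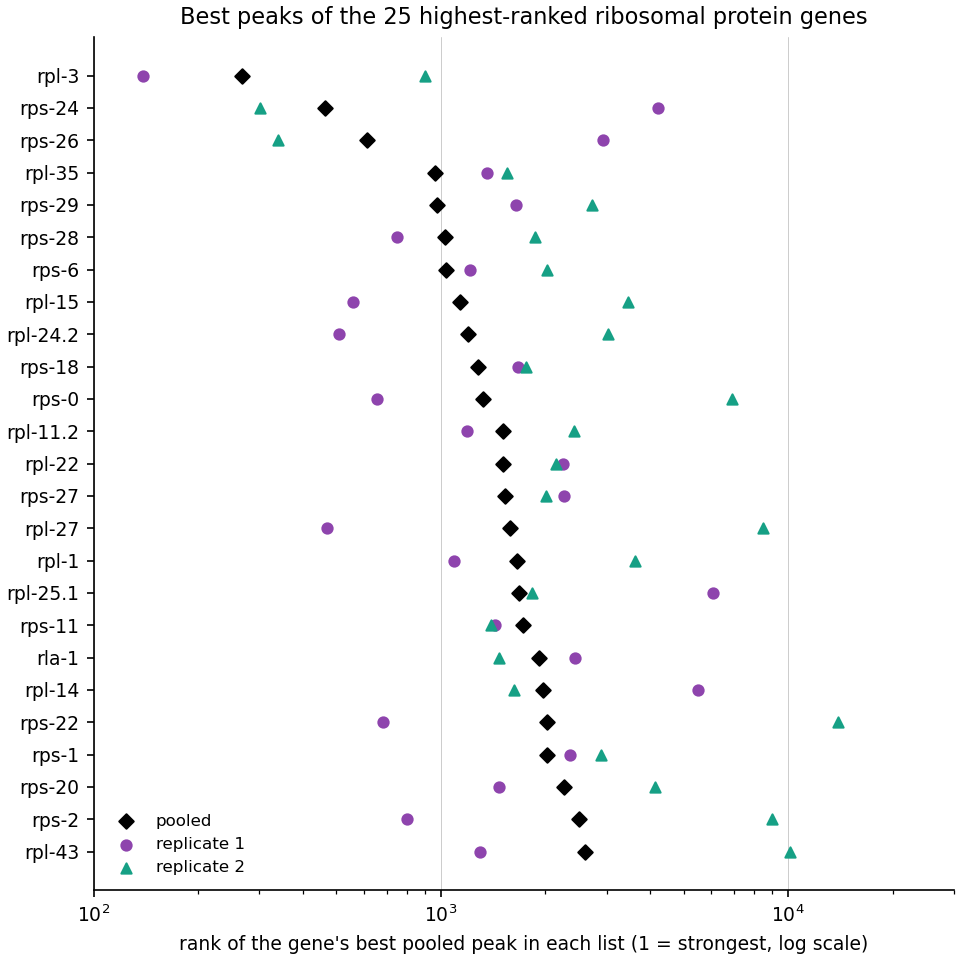
Rank of the best pooled peak of the 25 ribosomal protein genes with the strongest peaks (rows, strongest at the top) in the pooled list (diamonds), replicate 1 (circles) and replicate 2 (triangles) on a log scale on which 1 is the strongest peak. rpl-3 is at 268, 139 and 898, while the 2 replicates lie far apart at rps-24 (4232 and 301) and rps-22 (682 and 13907).

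Over the whole upstream kilobase, summits at ribosomal protein genes were about as dense as over the rest of the window, and they crowded in a narrower stretch of it. Of 166 pairs of a candidate summit and a ribosomal protein gene, 79 were upstream (47.6%, interval 39.8 to 55.5%), where 43.6% of the window lies. For all protein-coding genes 23.7% of such pairs were upstream, where 21.2% of the window lies. Per kilobase, ribosomal protein genes had 0.975 summits upstream, 0.910 in coding exons, 0.840 past the 3′ end and 0.697 in introns. The densities over all protein-coding genes were 0.369, 0.376, 0.324 and 0.270 in the same order, so ribosomal protein genes had more summits in each of these features.

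Among the 5000 strongest peaks, 34 of 54 summits at ribosomal protein genes were upstream (63.0%), against 30.8% at all protein-coding genes. The upstream density was 0.420 per kilobase, against 0.290 over the whole window of ribosomal protein genes, and 0.0799, against 0.0549, for all protein-coding genes, so upstream sequence stood above its own window by a like factor in both.

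Between 500 and 100 bp upstream the density differed more. These bounds were not among the planned features and take in the fullest part of the ribosomal protein profile, so the densities are a description. That stretch held 52 of the 166 summits, or 1.60 per kilobase at ribosomal protein genes, where the whole window had 0.893. Over all protein-coding genes it held 0.416 per kilobase, where the whole window had 0.329. The 2 fullest bins of 100 bp, from 400 to 201 bp upstream, held 22.2 and 25.9 summits per 100 ribosomal protein genes, against 3.69 and 4.44 per 100 protein-coding genes. Over all protein-coding genes the profile was highest between 200 and 101 bp upstream (4.94 per 100), where ribosomal protein genes had 6.17.

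Both replicates showed the same upstream crowding in their own lists. Between 500 and 100 bp upstream, ribosomal protein genes had 1.54 summits per kilobase in replicate 1, against 0.398 over all protein-coding genes, and 1.57 in replicate 2, against 0.403. The best upstream summit of the 67 ribosomal protein genes that had one lay a median of 349 bp from the 5′ end (quartiles 260 to 504 bp).

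**Figure D3:**
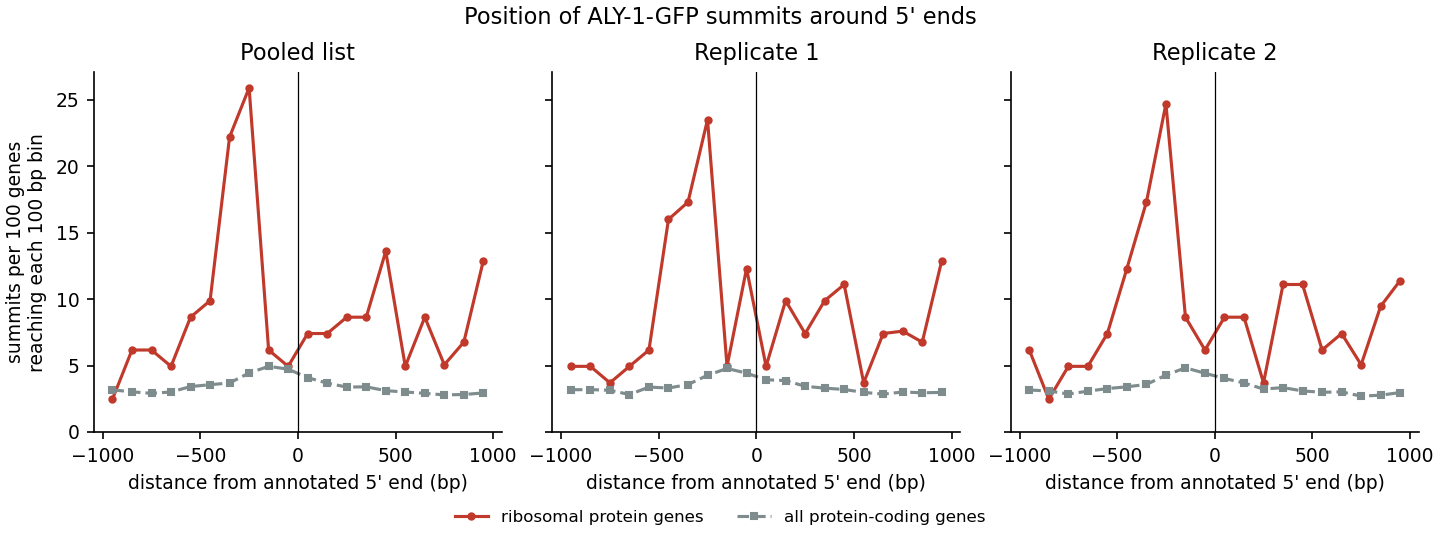
Candidate summits per 100 genes (vertical axis) in bins of 100 bp around the annotated 5′ end (horizontal axis, bp, negative upstream) in the pooled list and each replicate's list, for ribosomal protein genes (solid line, circles) and all protein-coding genes (dashed line, squares). Each panel has its highest point for ribosomal protein genes between 300 and 201 bp upstream, at 25.9, 23.5 and 24.7.

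The crowded surroundings of these genes limit which gene a summit can be given to. Of the 166 summits, 140 lay in the window of at least 1 other protein-coding gene, and the nearest 5′ end was the ribosomal protein gene's own for 42 of the 79 upstream summits. Of the 34 downstream summits, 21 were nearest to another gene's 5′ end. Pairs of ribosomal protein genes shared 5 peaks, such as the divergent pairs rpl-39 and rps-30 (rank 3452), rps-10 and rpl-24.1 (rank 4019) and rpl-36 and rps-14 (rank 4159). When each summit was given to its nearest gene only, 28 ribosomal protein genes remained with a summit among the 5000 strongest. The share of all protein-coding genes was not counted in that way, so whether the excess over the background remained cannot be told.

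Some upstream summits shared short stretches of sequence. Words of 8 letters, on either strand, were ranked by the difference in their share between the 201 bases around the best upstream summits of ribosomal protein genes (64 separate peaks) and those of other protein-coding genes (5243 peaks), and the 6 leading words that did not overlap each other by 5 letters or more were kept. They were chosen for this difference, after the sequences were seen, so the shares are a description without a test. A match does not show that any factor binds there.

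AAACGAGT stood in 11 of the 64 ribosomal protein peaks (17.2%) and in 1.07% of the others, GGCCTAAA in 10 (15.6%, against 0.725%) and GCGAGACC in 10 (15.6%, against 1.54%). ATACTCAG was in 8 (12.5%, against 0.267%), TGATAAAA in 11 (17.2%, against 2.31%) and AAAAATCG in 13 (20.3%, against 6.14%). At least 1 of the 6 words was in 46 of the 64 ribosomal protein peaks (71.9%), against 11.2% of the other peaks. Against other upstream peaks among the 5000 strongest, the share to compare with was 10.5%.

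Most of these peaks lie inside the 600 bp upstream of the 5′ end, so word shares there are not independent of the choice of words. In those 600 bp, 65 of the 81 ribosomal protein genes (80.2%) held at least 1 of these words, and 32.3% of all protein-coding genes did. The single words there were GGCCTAAA in 28.4% of ribosomal protein genes, against 1.96% of all protein-coding genes, GCGAGACC in 29.6%, against 2.76%, AAACGAGT in 19.8%, against 2.92%, and ATACTCAG in 17.3%, against 0.941%. TGATAAAA was in 22.2% of ribosomal protein genes, against 11.6%, and AAAAATCG in 43.2%, against 17.5%. Peaks were not stronger at genes that held a word: 37 of the 65 ribosomal protein genes with a word (56.9%) had a summit among the 5000 strongest, as had 10 of the 16 without one (62.5%), and the median best rank was 4214 with a word and 3320 without one.

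At AAACGAGT and ATACTCAG the flanks of many copies were alike as well, and copies with alike flanks are printed to show this. Each is shown in the direction of the word, with the word in capitals and 20 bases on either side, from build ce11. The first 4 carry AAACGAGT.
rps-29, chrIII:793783-793830, + strand: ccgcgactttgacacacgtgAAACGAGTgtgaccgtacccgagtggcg
rpl-11.2, chrX:2242949-2242996, - strand: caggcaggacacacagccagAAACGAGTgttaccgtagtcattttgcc
rpl-22, chrII:5055363-5055410, + strand: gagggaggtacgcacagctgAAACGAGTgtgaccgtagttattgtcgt
rps-23, chrIV:12391276-12391323, + strand: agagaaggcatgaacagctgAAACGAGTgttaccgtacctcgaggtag
The next 5 carry ATACTCAG.
rps-0, chrIII:4754307-4754354, + strand: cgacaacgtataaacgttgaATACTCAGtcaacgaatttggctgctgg
rps-22, chrIII:1950412-1950459, - strand: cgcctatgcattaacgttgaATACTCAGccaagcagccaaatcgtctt
rpl-39, chrV:7776325-7776372, - strand: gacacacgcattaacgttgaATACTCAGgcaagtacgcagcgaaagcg
rpl-7A, chrIV:4390610-4390657, - strand: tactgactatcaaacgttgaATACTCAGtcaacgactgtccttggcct
rpl-32, chrII:9057419-9057466, - strand: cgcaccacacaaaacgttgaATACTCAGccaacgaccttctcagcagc

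Of the 40 flanking positions, 8 carried the same base in at least 75% of the 11 ribosomal protein copies of AAACGAGT, and 12 did so in the 8 copies of ATACTCAG. Copies with unlike flanks, not printed, included AAACGAGT at rps-5 and rpl-36.A and ATACTCAG at rpl-9. The counts were lower for GCGAGACC (5, and 2 at other genes' peaks), AAAAATCG (3), GGCCTAAA (1) and TGATAAAA (0). At the other genes' peaks no flanking position reached that share over 56 copies of AAACGAGT or over 14 copies of ATACTCAG. That share is more easily reached with fewer copies, so counts from unequal numbers of copies are not directly comparable. The median distance from the word's centre to the summit was 50 bp for AAACGAGT and 32 bp for ATACTCAG in the ribosomal protein peaks. AAACGAGT stood on the strand of the gene in 9 of 11 copies, and ATACTCAG in 4 of 8.

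A small share of the ribosomal protein summits was close to a snoRNA gene. snoRNAs guide the chemical modification of ribosomal RNA. Of the 166 summits, 8 (4.82%, interval 2.10 to 9.27%) lay within 250 bp of one, against 0.817% of summits at all protein-coding genes. They belonged to 8 genes, among them rps-26 (rank 614, 108 bp from F39B2.14), rps-4 (rank 2887, 230 bp from Y43B11AR.7), rps-12 (rank 2888, 139 bp from F54E7.11) and rpl-6 (rank 6425, 111 bp from R151.11). The other 4 were weak peaks: rpl-7A (22190), rps-29 (24157), rpl-4 (24184) and rla-1 (24297). Among the 5000 strongest peaks the share within 250 bp was 5.56% (interval 1.16 to 15.4%), against 2.41%. Within 100 bp it was 0 of 54 summits, against 1.79%. A snoRNA gene lay inside 13 of the 81 ribosomal protein genes and inside 192 of the 19973 protein-coding genes. The shares were not adjusted for this difference in gene content.

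Ribosomal protein genes with and without a snoRNA gene inside them had peaks of like rank. Of the 13 that hold 1 or more (19 snoRNA genes in all), 8 had a summit among the 5000 strongest (61.5%), as had 39 of the 68 that hold none (57.4%). Median best ranks were 4609 in the hosts and 4159 in the others. The hosts were longer (median 1062 bp, against 690 bp), and this was not adjusted for. All 3 thresholded summits were at genes that host none, though that of rps-26 lay 108 bp from a snoRNA gene. Over all protein-coding genes that host a snoRNA gene, 132 of 192 (68.8%) had a summit among the 5000 strongest, 57 had a thresholded summit and the median best rank was 2317. Those 192 hosts are longer, with a median of 5609 bp, against 1062 bp for the 13 ribosomal protein hosts. Of all protein-coding genes that host none, 17.9% had a summit among the 5000 strongest, and their median best rank was 9598.

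The replicates ranked the ribosomal protein peaks differently. In as many strongest peaks of each replicate as the thresholded set holds, replicate 1 had 9 ribosomal protein genes (11.1%, interval 5.21 to 20%), against 4.06% of all protein-coding genes, and replicate 2 had 2 (2.47%, interval 0.3 to 8.64%), against 3.96%. No gene was in both, where replicate 2 had only 2 genes that could be shared. The overlap over all protein-coding genes was not counted, so this absence is not read as a difference between the replicates. The 9 genes of replicate 1 were rpl-3, rpl-27, rpl-24.2, rpl-11.1, rpl-15, rps-0, rps-22, rps-28 and rps-2, and the 2 genes of replicate 2 were rps-24 and rps-26. rpl-11.1, at rank 540 in replicate 1, ranked only 8428 in the pooled list, and its best peak in the list of replicate 2 ranked 12966.

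More ribosomal protein genes were found in both replicates in longer lists, where the overlap grows with the number of genes counted. Among the 5000 strongest peaks, replicate 1 had 47 ribosomal protein genes (58%), against 18.6% of all protein-coding genes, and replicate 2 had 42 (51.9%), against 18.3%. The 26 genes in both were 55.3% of the genes of replicate 1 and 61.9% of those of replicate 2. Among the 2000 strongest, 24 and 15 genes were found in replicates 1 and 2, and 6 were in both. Whether these overlaps differ from those of unrelated lists of the same lengths was not tested. The overlap over all protein-coding genes was not counted at these depths either.

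A pooled peak was found in a replicate when a replicate peak overlapped it by at least 1 bp. Of the 79 best peaks, 63 were found in both replicates, 37 of them at a stronger rank in replicate 1 and 26 in replicate 2. The median log2 ratio of the rank in replicate 1 to the rank in replicate 2 was −0.62 (quartiles −1.85 to 0.83), where a negative value means stronger in replicate 1. Over all 18236 pooled peaks found in both the median was 0.00. Spearman's rho between the ranks was 0.26 over the 63 ribosomal protein genes and 0.43 over all pooled peaks found in both. Genes that share a peak share its ranks, and both replicates went into the pooled list, so rho is given as a description.

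Upstream and other best peaks of ribosomal protein genes among the 5000 strongest differed in the direction of this ratio. Of the 28 genes whose best peak was upstream, ranked among the 5000 strongest and was found in both, 23 had the stronger rank in replicate 1, with a median log2 ratio of −1.39 (quartiles −2.59 to −0.27). The 28 are genes, so a shared peak counts for each. Those of rpl-39 with rps-30 and of rpl-36 with rps-14 were both stronger in replicate 1. Over the 1318 separate pooled peaks of these ranks upstream of any protein-coding gene and found in both replicates, 48.1% were stronger in replicate 1. Their median was 0.08 (quartiles −1.21 to 1.32), and they were not limited to the best peak of a gene. Of the 15 ribosomal protein genes whose best peak among the 5000 strongest lay elsewhere, 5 were stronger in replicate 1, with a median of 0.72. No like set of other peaks was counted beside these 15. Over all candidate summits of ribosomal protein genes at any rank, downstream and intron summits were like upstream ones: 62.5% of upstream summits found in both replicates were stronger in replicate 1 (median −0.60, 35 of 56), 61.9% of downstream ones (−0.42, 13 of 21), 57.1% of those in introns (−0.44, 4 of 7) and 48.1% of those in coding exons (0.39, 13 of 27). These differences were not tested. With 2 replicates of a single group, whether they come from the embryos, the precipitation or the library cannot be told apart.

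The largest differences towards replicate 1 among best peaks of rank 5000 or better that were found in both replicates were at rps-22 (rank 682 in replicate 1 and 13907 in replicate 2, log2 ratio −4.35), rpl-27 (468 and 8446, −4.17) and rps-2 (796 and 8997, −3.50). Those towards replicate 2 were at rps-24 (4232 and 301, 3.81), rps-26 (2934 and 339, 3.11) and rpl-20 (7628 and 1334, 2.52). These ranks are those of replicate peaks that overlap the pooled peak. By the best peak in the gene's window in each replicate's own list, rpl-20 instead ranked 7628 in replicate 1 and 11911 in replicate 2. There rps-2 ranked 796 and 3156, while rps-22, rpl-27, rps-24 and rps-26 kept the same direction at like ranks. Of the 3 genes with a thresholded summit, 2 (rps-24 and rps-26) thus ranked far higher in replicate 2. Ranks were close at rps-11 (1435 in replicate 1 and 1394 in replicate 2), rps-18 (1671 and 1763) and rpl-22 (2253 and 2148). Best peaks that overlapped no candidate peak of replicate 1 have no ratio. With a pooled rank of 5000 or better these were the peak shared by rpl-24.1 and rps-10 (pooled rank 4019, rank 1046 in replicate 2) and those of rpl-36.A (3579 and 4472) and rpl-7 (4978 and 2213). The best peak of rpl-4 (pooled rank 6284, rank 987 in replicate 2) was also not found in replicate 1. Some of these genes still had a peak elsewhere in their window in replicate 1's own list. Its rank was 2186 at rpl-7, 10594 at rpl-4 and 14305 at rpl-24.1, while rps-10 and rpl-36.A had none.

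**Figure D4:**
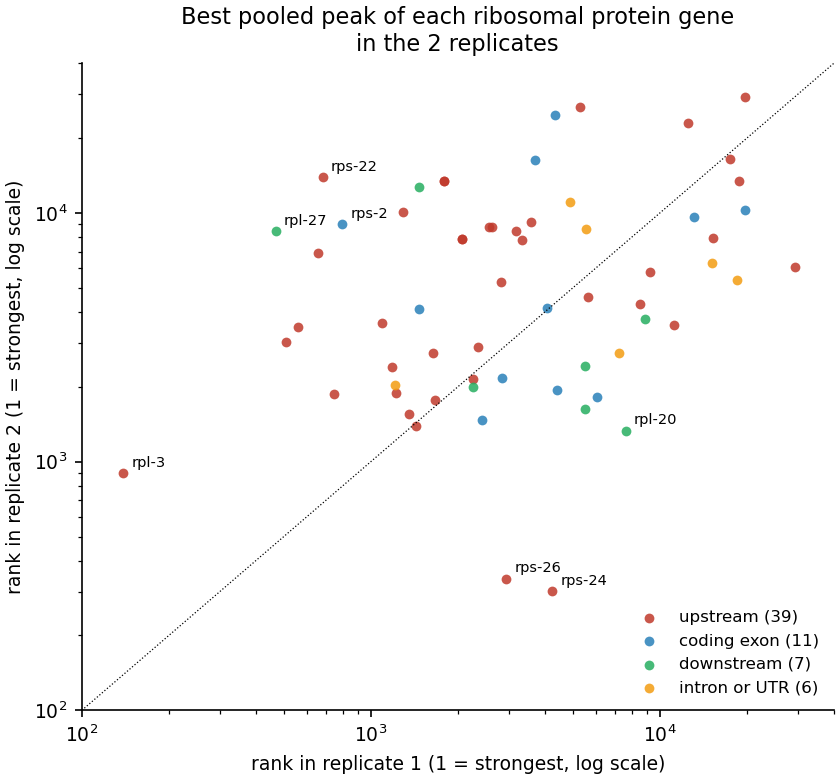
Rank of the best pooled peak of 63 ribosomal protein genes in replicate 1 (horizontal axis) and replicate 2 (vertical axis), both on log scales on which 1 is the strongest peak, coloured by where the summit lies, with a dotted line of equal rank. Points above the line are stronger in replicate 1: 27 of the 39 upstream peaks are there, and rps-24 and rps-26 stand far below it.

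Genes of mitochondrial ribosomal proteins and of ribosome biogenesis were less often among the 5000 strongest peaks than the cytosolic ribosomal protein genes (58%). Their shares were above that of all protein-coding genes (18.4%), and these differences were not tested. Products of the 70 mitochondrial ribosomal protein genes (mrpl- and mrps-) translate the messages of the mitochondrial genome. Of these genes, 57 had a candidate summit and 19 (27.1%) were among the 5000 strongest, with a median best rank of 11065. A thresholded summit was found at 1 of them, mrpl-23 (rank 64), or 1.43%, against 4.03% of all protein-coding genes. Of 29 ribosome biogenesis genes, 12 (41.4%) were among the 5000 strongest with a median best rank of 6278. A thresholded summit was found at 2 of the 29 (6.9%), ncl-1 (621) and nol-14 (775). fib-1, the nucleolar methyltransferase fibrillarin, ranked 1351 and nucl-1, nucleolin, ranked 1960. ubl-1 and ubq-2, which encode ribosomal proteins fused to ubiquitin or a ubiquitin-like protein, ranked 4908 and 6299.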

How the data were processed

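ChIP-seq peak lists of 2 biological replicates of 1 group were analysed. Per the deposited file listings, candidate lists of 30000 peaks, one per replicate and one pooled, fed a reproducibility test between replicates (irreproducible discovery rate), and the thresholded list is the optimal set that passed. Which aligner, peak caller and cutoff served is not given in the sources at hand. The deposited lists give each peak a signal value, a score of unstated scale from the authors, and a −log10 q-value. They hold no read counts, so depth is unknown. The ce10 lists were not used.

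Peaks were ranked by signal. Genes came from Ensembl release 115 (WBcel235, the coordinates of ce11). Members and gene lists were chosen with earlier results of these data known. Counts carry exact Clopper-Pearson 95% intervals and no test, since there is 1 group. Of 35 ribosome biogenesis names, 29 matched. Genes named were those with a thresholded summit, the 15 best ranks, those among each replicate's strongest peaks, the 3 largest rank differences each way, up to 10 with a summit within 250 bp of a snoRNA gene, and those with no summit. Genes named outside this rule, such as rps-11, rpl-4, rla-2, the pairs that share a peak and those whose sequence is printed, were chosen after their values were seen. Summit assignment and the word search were tested on simulated data (Python 3.11.15, pandas 2.3.3, numpy 2.4.6, scipy 1.17.1, matplotlib 3.10.9). Alternatives were other gene windows, nearest-gene assignment, other numbers of peaks, other matching between replicates and each replicate alone. Those on the words were chosen after seeing the data.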

Additional observations from a re-analysis of the deposited data

How the results depend on the processing

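The median rank ratio between replicates stayed negative under 3 other ways of matching peaks (−0.74 to −0.63). The share near the background in the thresholded set (3.7%, against 4.03% of all protein-coding genes) did not hold in every setting. In as many strongest peaks of replicate 1 alone, the share of ribosomal protein genes was 11.1%, above the 4.06% of all protein-coding genes. With replicate 2 alone it was 2.47%, against 3.96%. Counts within 1.5 times the reported one and shares inside its 95% interval, and rank ratios within 0.23 of it, were taken as unmoved, which held for 23 settings and not for 17. Counts of genes moved with the window and the number of peaks. With no flanks around the gene, 0 ribosomal protein genes had a thresholded summit, 10 had one among the 5000 strongest, 1 was in the strongest set of replicate 1 and 0 in that of replicate 2. Giving each summit to its nearest gene left 28 among the 5000 strongest, 5 in replicate 1 and 1 in replicate 2. The window around the 5′ end gave 34 genes in place of 47, and 10000 peaks gave 66. For the counts without flanks, by nearest gene and around the 5′ end, no share of all protein-coding genes was counted. Whether the excess over the background held in those settings cannot be told. With 440 peaks the thresholded count was 1 and that of replicate 1 was 1. With 2000 peaks the counts were 20 (pooled), 24 (replicate 1) and 15 (replicate 2). Using 1 replicate alone gave 2 to 9 genes in place of the thresholded 3, 42 to 47 in place of 47, 5.56 to 7.36% near a snoRNA gene in place of 4.82%, 47.5 to 49.1% upstream in place of 47.6%, and 64.2 to 75.5% in coding exons in place of 67.9% of summits inside genes. The snoRNA share was 1.20% at 100 bp, against 0.547% at all protein-coding genes, and 10.8% at 500 bp, against 1.11%. The upstream share was 36.5% with nearest genes and 63.0% among the 5000 strongest. Within 50 bp of the summit, a setting added after seeing the data, 42.2% of ribosomal protein peaks held a word, against 5.68% of others. Among the 5000 strongest peaks it was 75.9%, against 10.5%. No paired analysis was possible because there is only 1 group. The lists carry no read depth, so a missing peak and shallow sequencing cannot be told apart, and 2 replicates give no measure of error for a single peak.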
